A study of Mus musculus with 35 samples.

Results

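A group of 35 genes that mark microglia and macrophages was followed through 35 RNA sequencing libraries of mouse hypothalamus. The genes were taken by name from a list, with no threshold on their levels. The list was chosen with earlier results of these data known, so its counts beside those of all genes are descriptions. All 35 were found among the 49568 gene names counted and were among the 18063 genes with enough counts to test. The list holds 13 surface receptors and other surface or secreted markers of resting microglia, 3 transcription factors, 3 complement C1q chains, 4 genes of TREM2, TYROBP and Fc receptor signalling, 2 genes of the CD180 complex, 3 genes of integrins and their activation, 4 lysosomal genes and 3 general leukocyte or cytoskeletal genes.

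Microglia are the resident macrophages of the brain. They depend on signalling through the CSF1 receptor, sense nucleotides released by neighbouring cells through purinergic receptors such as P2RY12, and receive the neuronal chemokine CX3CL1 through CX3CR1. In the hypothalamus they are known to alter their form and activity with diet and feeding state.

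All mice were male, of the strain given as B6/J, and tissue was collected at Zeitgeber time 16, counted in hours from lights-on. Control mice, called wild type in the design of the series, either had free access to food (10 libraries) or had been fasted for 16 h from lights-on (10 libraries). PER2-S662D mice, whose clock protein PER2 has an aspartate at a serine that is normally phosphorylated, were fed (5 libraries) or fasted (5 libraries). Mice labelled Per2 ko were all fasted (5 libraries), so no fed group carried that label. The age of the mice and the way the alleles were made are not given in the sources used here. Each library bears its own replicate number, but the labels do not say that each came from a separate animal, so p-values measure the spread between these libraries. The tissue was a dissected block that holds many cell types, and in such bulk RNA fewer microglia and less RNA per microglial cell cannot be told apart.

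Depth ran from 17959586 to 37027342 assigned fragments per library, and mitochondrial genes took 6.24% to 9.08% of them. Levels are given as CPM, the counts of a gene per fixed number of assigned fragments, with libraries scaled by the TMM method. Per2 itself did not separate the libraries labelled Per2 ko from fasted controls, with 28.2 to 33.4 CPM against 26.1 to 33.1 CPM, and it was lower in S662D mice, at 16.4 to 22.7 CPM over both feeding states. The counting does not show a loss of Per2 RNA in the libraries labelled Per2 ko, and those libraries are named by their label below. The numbers that the file headers give to the libraries fall into separate ranges for controls 1 to 5, the labelled ko, controls 6 to 10 and the S662D mice, so effects of genotype and of library range cannot be separated. The header numbers of S662D replicates 2, 3 and 4, in both feeding states, have 1 digit more than those of replicates 1 and 5, and what it stands for is not given in the sources used here.

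The label of the gene group was checked against blood and border cells. The 12 blood leukocyte markers summed to 0.316 to 1.99 CPM in any library and 0 of them had enough counts to test, and each of the 12 was at 0 in at least 1 library. The 5 red cell markers, among them globin genes, summed to 327 to 1041 CPM, so the low leukocyte sums do not show that blood was absent. The 10 markers of border macrophages, the macrophages of meninges and vessels, summed to 12.3 to 23.9 CPM. The 35 genes together summed to 418 to 592 CPM. Genes that are known to separate microglia from other macrophages, among them Tmem119, P2ry12, Sall1 and Siglech, were present in all groups.

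Per length of transcript, the group spanned a wide range of levels. In fed controls Ctss, the lysosomal protease cathepsin S, was the most abundant at 39.1 ± 2.51 RPKM (SD, n = 10 libraries), where RPKM is CPM per kilobase of counted exon. C1qb followed at 34.5 ± 4.98 RPKM and C1qa at 32.9 ± 4.26 RPKM, and neighbours in this order differed by less than the SD of C1qb. The lowest were Itgad at 0.131 ± 0.0791 RPKM, Ptprc, which encodes the leukocyte phosphatase CD45, at 0.147 ± 0.0219 RPKM, and Cd180 at 0.375 ± 0.124 RPKM. Itgad and Cd180, whose responses to fasting were the largest of the 35, were thus among the scarcest RNAs of the group.

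Promoter sequences are shown for 4 genes that the results turn on: Cd180 and Cx3cr1, which fell on fasting in both genotypes, P2ry12, which fell in controls, and C1qc, whose fasting response differed between 2 sets of controls described below. Each line gives the 250 bases before an annotated transcription start (RefSeq, GRCm38.p6), read 5′ to 3′ on the strand of the gene. The windows are chr13:102693308-102693557 (plus strand) for Cd180, chr9:120068297-120068546 (minus strand) for Cx3cr1, chr3:59262986-59263235 (minus strand) for P2ry12 and chr4:136892915-136893164 (minus strand) for C1qc. Capitals mark a match on either strand to GAGGAAGT, a site of the myeloid factor PU.1 that Spi1 encodes, or to the E-box CACGTG, which CLOCK and BMAL1 bind.
Cd180: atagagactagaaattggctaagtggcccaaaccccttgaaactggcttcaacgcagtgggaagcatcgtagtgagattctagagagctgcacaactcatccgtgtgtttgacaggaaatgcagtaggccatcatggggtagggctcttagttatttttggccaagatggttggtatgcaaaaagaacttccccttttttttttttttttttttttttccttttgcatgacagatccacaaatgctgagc
Cx3cr1: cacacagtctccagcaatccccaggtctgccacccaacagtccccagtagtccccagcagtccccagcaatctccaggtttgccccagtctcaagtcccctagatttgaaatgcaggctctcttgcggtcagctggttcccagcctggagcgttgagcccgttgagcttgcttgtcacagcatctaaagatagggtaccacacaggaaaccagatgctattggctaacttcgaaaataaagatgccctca
P2ry12: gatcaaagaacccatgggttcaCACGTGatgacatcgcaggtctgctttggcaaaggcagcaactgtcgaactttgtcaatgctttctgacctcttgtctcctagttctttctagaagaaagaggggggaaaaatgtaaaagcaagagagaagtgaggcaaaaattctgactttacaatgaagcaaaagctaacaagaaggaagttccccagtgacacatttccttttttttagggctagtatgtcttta
C1qc: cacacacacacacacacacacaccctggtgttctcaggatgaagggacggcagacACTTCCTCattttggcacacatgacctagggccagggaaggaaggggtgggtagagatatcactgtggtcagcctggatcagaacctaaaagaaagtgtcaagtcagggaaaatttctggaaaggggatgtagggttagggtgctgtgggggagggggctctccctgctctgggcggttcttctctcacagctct
The window of P2ry12 held 1 E-box, whose first base lies at -228 from the start, and that of C1qc held 1 PU.1 match at -195 on the opposite strand. Windows were found for 26 of the 35 genes. Of those 26, 1 (C1qc) held GAGGAAGT, 2 (P2ry12 and Siglech) held CACGTG and 4 (Ctss, Fcgr3, Lyz2 and Siglech) held ACANNNTGT, a core of the glucocorticoid receptor site. Some genes had more than 1 window, and by window the motifs were in 1, 2 and 5 of the 33 of these genes, beside 2.44%, 6.02% and 5.84% of all 32851 windows of that length. A match describes these letters only. Of the 9 genes called on fasting in either genotype, 7 had a window, and CACGTG was in that of 1 of them, GAGGAAGT and ACANNNTGT in those of 0.

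The first comparison asked how a 16 h fast altered the group in control mice. Most of the group was slightly lower after fasting, and 1 gene rose steeply. At an adjusted p below 0.05 (edgeR's quasi-likelihood test, Benjamini-Hochberg adjustment over all 18063 genes), 7 of 35 genes fell and 1 rose, where 3.88% of all genes tested were called, 1.68% lower and 2.2% higher. The log2 fold change was below 0 for 33 of 35 genes, and their median was -0.23 beside 0.00 for all genes. As the list was chosen with earlier results known, these counts are descriptions. Summed over the 35 genes, the level was 524 to 592 CPM (median 561) in fed controls and 418 to 586 CPM (median 505) in fasted controls, so the groups overlapped.

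**Figure D1:**
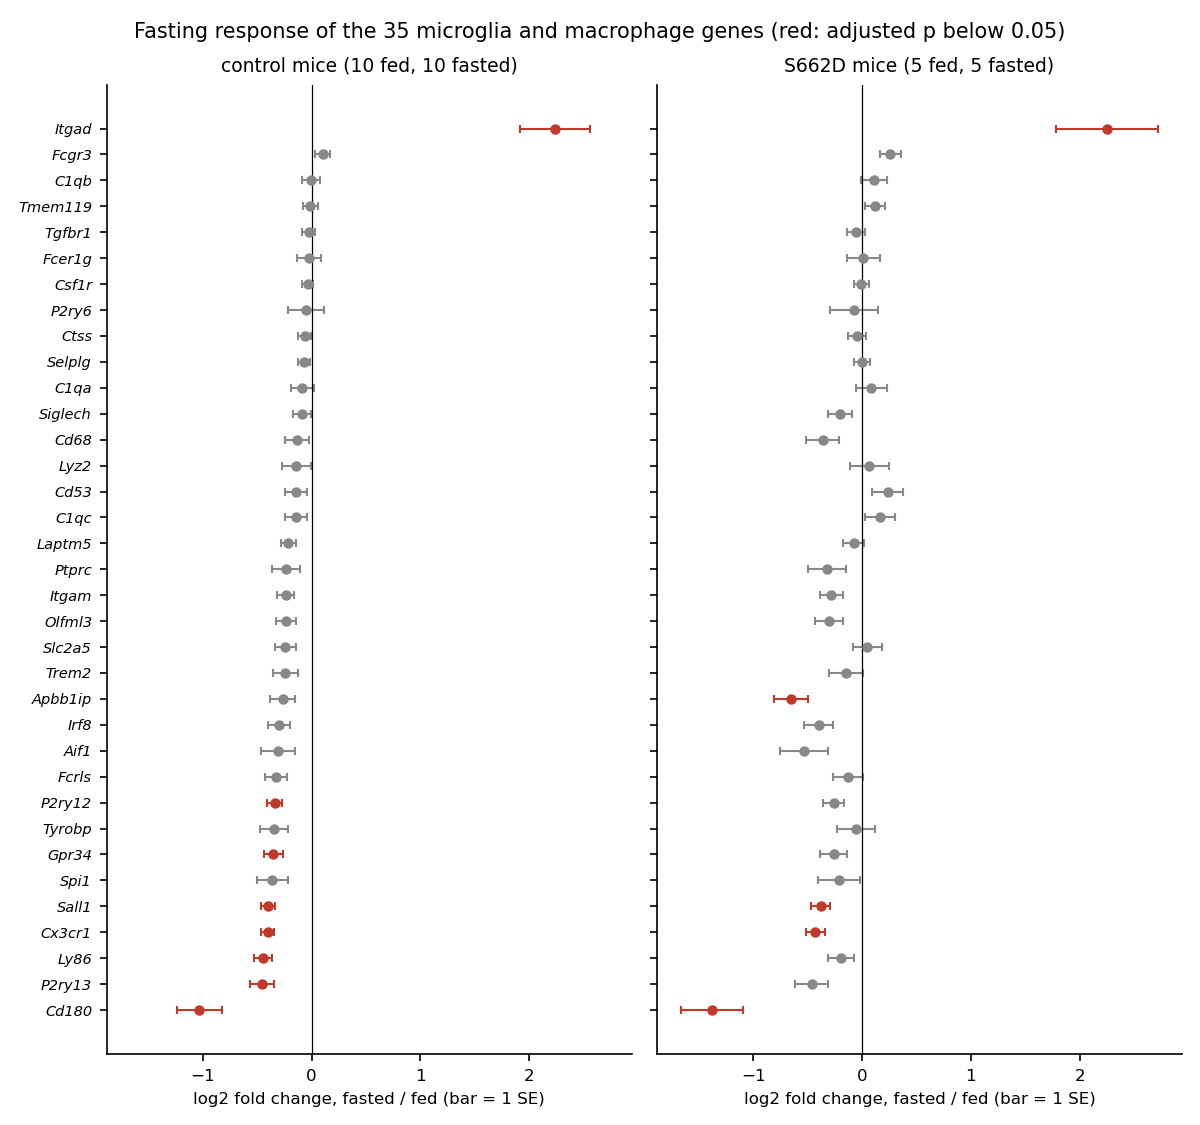
Log2 fold change on fasting (horizontal axis, fasted against fed, bar = 1 SE) for the 35 genes in control mice (left) and S662D mice (right), in the order of the control values. Red points have an adjusted p below 0.05. Itgad stands alone on the right at 2.23 and 2.25, Cd180 lies lowest at -1.03 and -1.38, and most other genes lie between -0.5 and 0.

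Itgad, on chromosome 7 (chr7:128154376-128223816, mm10, plus strand), encodes the integrin alpha D chain of the beta-2 integrins of phagocytes, and was the gene that rose. In fed controls it lay at 0.106 CPM at the lowest, 0.571 at the median and 1.22 at the highest, and in fasted controls at 0.983, 2.89 and 4.27 CPM. Of the 10 fasted libraries, 8 lay above every fed one. The rise was 4.70-fold (log2 fold change 2.23, SE 0.32, adjusted p = 1.09e-05). Behind it stood 2 to 22 fragments per fed and 22 to 77 per fasted library. Of the counted exon bases of Itgad, 19.7% overlap other genes, on both strands. Of its 50-base words, 13.5% occur in other transcripts (Gm17831, Itgax and Slc25a51), so part of its count may belong to those transcripts. The neighbouring Itgam (chr7:128062640-128128160), which encodes the alpha M chain CD11b, was not called. It was at 15.9, 17.4 and 19.0 CPM (lowest, median, highest) fed and 9.11, 14.9 and 20.1 CPM fasted, and its log2 fold change was -0.24 (adjusted p = 0.0928).

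The CD180 complex fell as a pair. Cd180 encodes a surface protein related to Toll-like receptors that restrains Toll-like receptor 4 signalling, and Ly86 encodes its secreted partner MD-1. Cd180 (chr13:102693558-102739629) lay at 0.795, 1.72 and 2.61 CPM (lowest, median, highest) in fed controls and at 0.377, 0.719 and 1.35 CPM in fasted controls. Of the 10 fasted libraries, 6 lay below every fed one, and the fall was to 0.489 of the fed level (log2 fold change -1.03, SE 0.21, adjusted p = 0.000828). It rested on 15 to 54 fragments per fed and 7 to 27 per fasted library. Ly86 lay at 6.84, 7.84 and 9.00 CPM fed and 4.36, 5.82 and 7.57 CPM fasted (log2 fold change -0.45, SE 0.08, adjusted p = 0.000325). Both calls were lost within controls 6 to 10 alone, where the values were -0.95 (adjusted p = 0.0519) and -0.33 (adjusted p = 0.0811).

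Among the 13 markers of resting microglia, 4 fell and 9 were not called, with log2 fold changes of those 9 from -0.32 to -0.01. The chemokine receptor gene Cx3cr1 was at 27.9, 31.5 and 36.0 CPM (lowest, median, highest) in fed and 20.2, 22.6 and 29.3 CPM in fasted controls. In 8 of 10 fasted libraries it was below every fed one, and it fell to 0.755 of the fed level (log2 fold change -0.41, SE 0.06, adjusted p = 1.13e-05). P2ry12, the ADP receptor by which microglial processes find injury, was at 17.3, 20.9 and 24.9 CPM fed and 12.99, 16.9 and 21.0 CPM fasted, and fell by 0.34 on the log2 scale (SE 0.07, adjusted p = 0.000729). P2ry13, a second ADP receptor gene that lies beside P2ry12 on chromosome 3, was at 6.91, 7.79 and 9.77 CPM fed and 4.09, 5.10 and 8.26 CPM fasted (-0.46, SE 0.11, adjusted p = 0.00678). In these 2 genes the upper fasted libraries lay within the fed range. Gpr34, a receptor for lysophosphatidylserine, fell by 0.35 on the log2 scale (SE 0.09, adjusted p = 0.00937), from 7.95 ± 1.01 to 6.24 ± 0.803 CPM (SD, n = 10 each). This last call was lost within controls 1 to 5 and within controls 6 to 10 (adjusted p = 0.144 and 0.0851). The markers that were not called included Tmem119 at -0.01 and Csf1r, the receptor on which microglial survival depends, at -0.04.

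Sall1, which encodes a transcription factor that maintains microglial identity, was the transcription factor gene that fell. It was at 20.8, 23.1 and 29.3 CPM (lowest, median, highest) in fed and 15.3, 17.8 and 21.8 CPM in fasted controls. All but 1 of the fasted libraries lay below every fed one. The log2 fold change was -0.40 (SE 0.06, adjusted p = 2.15e-05). Spi1, which encodes PU.1, and Irf8, both drivers of the myeloid lineage, had -0.36 and -0.30 and were not called.

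The remaining groups held no gene called in this comparison. The C1q chains C1qa, C1qb and C1qc, which start the classical complement pathway, had log2 fold changes of -0.09, -0.01 and -0.14. The 4 genes of TREM2, TYROBP and Fc receptor signalling ranged from -0.35 (Tyrobp) to 0.10 (Fcgr3), the 4 lysosomal genes from -0.21 to -0.06, and the 3 leukocyte and cytoskeletal genes from -0.31 (Aif1) to -0.14. Of all 35 genes, 18 had an unadjusted p below 0.05, where 13.3% of all genes did. Values below 0 were spread over the group, while the genes called lower were 4 receptors, Sall1 and the CD180 complex.

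**Figure D2:**
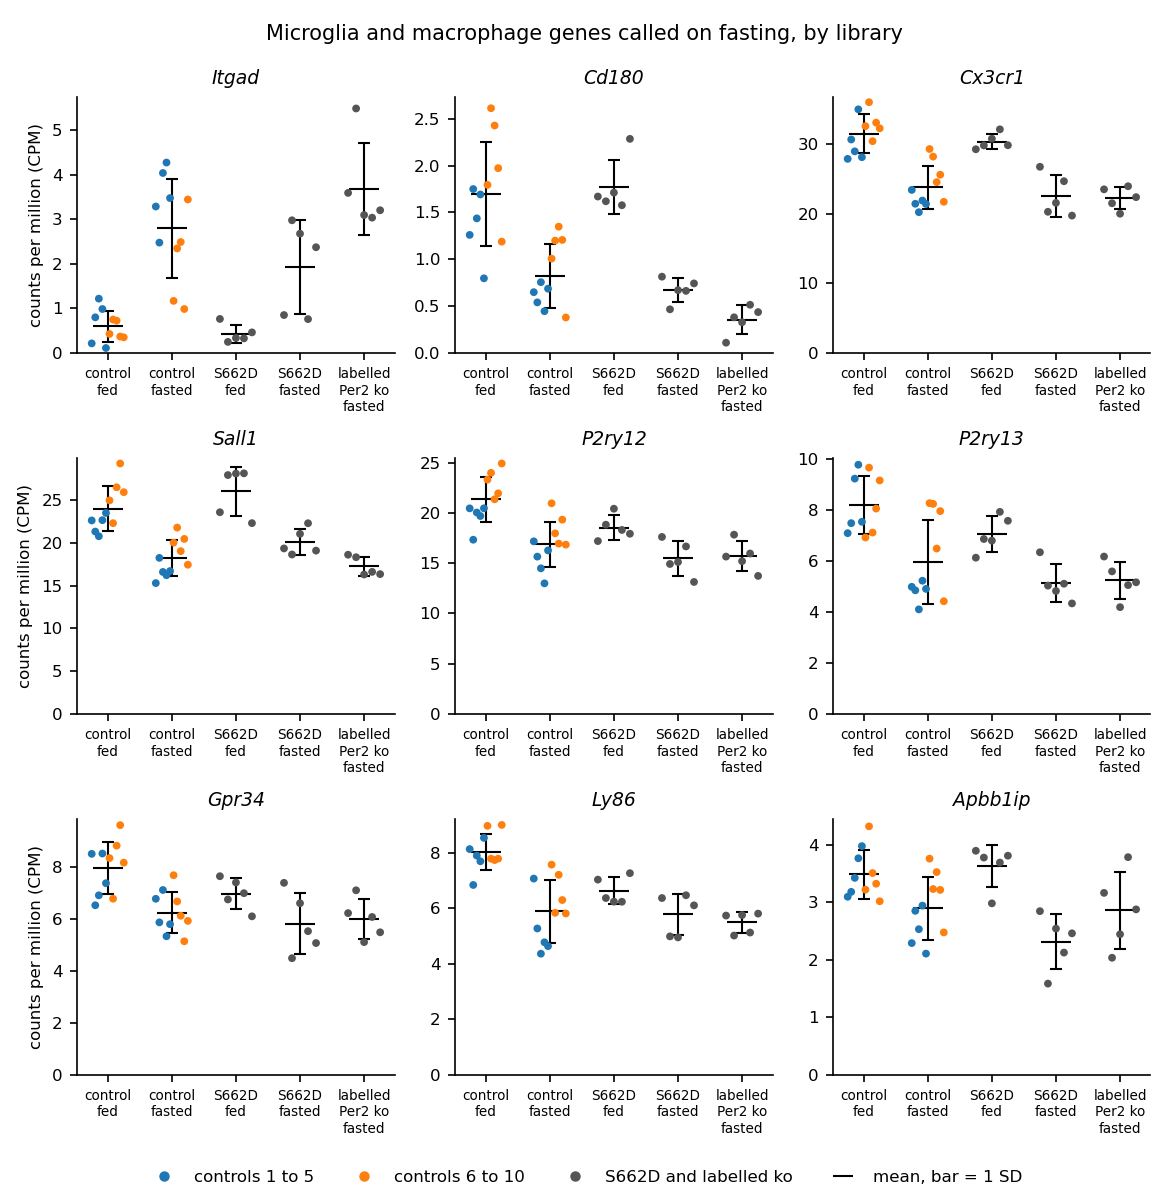
Level in each library (vertical axis, CPM) of the 9 genes called on fasting in either genotype, by group, with the mean and SD as black bars. Blue and orange points are controls 1 to 5 and 6 to 10. Itgad is higher, and the other genes lower, in fasted than in fed mice, and the labelled Per2 ko libraries lie near the fasted controls except for Cd180, where they span 0.107 to 0.513 CPM.

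In S662D mice the fast gave 5 calls among the 35 genes, 1 higher and 4 lower, beside 2.64% of all genes tested (1.8% higher, 0.83% lower). The log2 fold change was below 0 for 24 of 35 genes with a median of -0.13, and 14 had an unadjusted p below 0.05, where 14.3% of all genes did. Cd180, Cx3cr1, Sall1 and Itgad were called as in controls, and Apbb1ip was called in S662D mice. Cd180 was at 1.67, 1.62, 1.71, 1.58 and 2.29 CPM in fed replicates 1 to 5 and at 0.813, 0.464, 0.669, 0.661 and 0.741 CPM in fasted replicates 1 to 5. Every fasted library lay under every fed one, and the log2 fold change was -1.38 (SE 0.28, adjusted p = 0.00187). The share of all genes whose groups did not overlap in S662D mice was not counted, so this separation is a description only.

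Cx3cr1 gave 29.2, 29.8, 30.8, 32.1 and 29.8 CPM in the fed S662D libraries and 26.7, 20.3, 21.5, 24.7 and 19.7 CPM in the fasted ones, again without overlap (log2 fold change -0.43, SE 0.09, adjusted p = 0.00132). Sall1 gave 23.6, 27.9, 28.1, 28.1 and 22.3 CPM fed and 19.3, 18.6, 21.0, 22.3 and 19.1 CPM fasted (-0.38, SE 0.09, adjusted p = 0.00552). Itgad gave 0.759, 0.243, 0.331, 0.323 and 0.457 CPM fed and 0.847, 2.98, 2.68, 0.756 and 2.37 CPM fasted (2.25, SE 0.47, adjusted p = 0.00305). Fasted replicates 1 and 4 of the S662D mice thus stayed near the highest fed library, while the other 3 lay well above it. Apbb1ip, which encodes the adaptor RIAM that links Rap1 to integrin activation, gave 3.90, 3.78, 2.98, 3.69 and 3.81 CPM fed and 2.85, 1.59, 2.54, 2.13 and 2.46 CPM fasted (-0.65, SE 0.16, adjusted p = 0.0114). Its groups did not overlap, but the call was lost without fasted S662D replicate 2 and when only the S662D libraries were fitted. As for Cd180, the separations of Cx3cr1 and Apbb1ip are descriptions only.

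The C1q chains stood at 0.09, 0.11 and 0.17 on fasting in S662D mice (C1qa, C1qb and C1qc), and none was called. P2ry12, P2ry13, Gpr34 and Ly86, which fell in controls, had log2 fold changes of -0.26, -0.46, -0.26 and -0.19 with adjusted p of 0.148, 0.103, 0.299 and 0.473. A difference between the genotypes does not follow from these, since the interaction of genotype and fasting called 0 of 35 genes (0% of all genes tested, with edgeR and with DESeq2). At an unadjusted p below 0.05 that interaction held 1 of the 35 genes, Cd53 at 0.38, and 6.37% of all genes. For Itgad, Cd180, Cx3cr1 and Sall1 the interaction was 0.02, -0.35, -0.02 and 0.02, with SE of 0.46, 0.35, 0.11 and 0.11. The 4 genes called in both genotypes moved in the same direction in each.

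The S662D response was also fitted within libraries with and without the additional header digit. With the 3 fed and 3 fasted libraries that carry the additional digit, the same 5 genes were called (3.71% of all genes). With the remaining 2 fed and 2 fasted libraries, 0 of 35 were called and 0.0373% of all genes. The log2 fold changes in that smaller fit were -1.34 for Cd180, 1.41 for Itgad, -0.35 for Cx3cr1, -0.25 for Sall1 and -0.54 for Apbb1ip. They had the same direction as in the full set, and the difference between the 2 subsets was not tested.

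**Figure D3:**
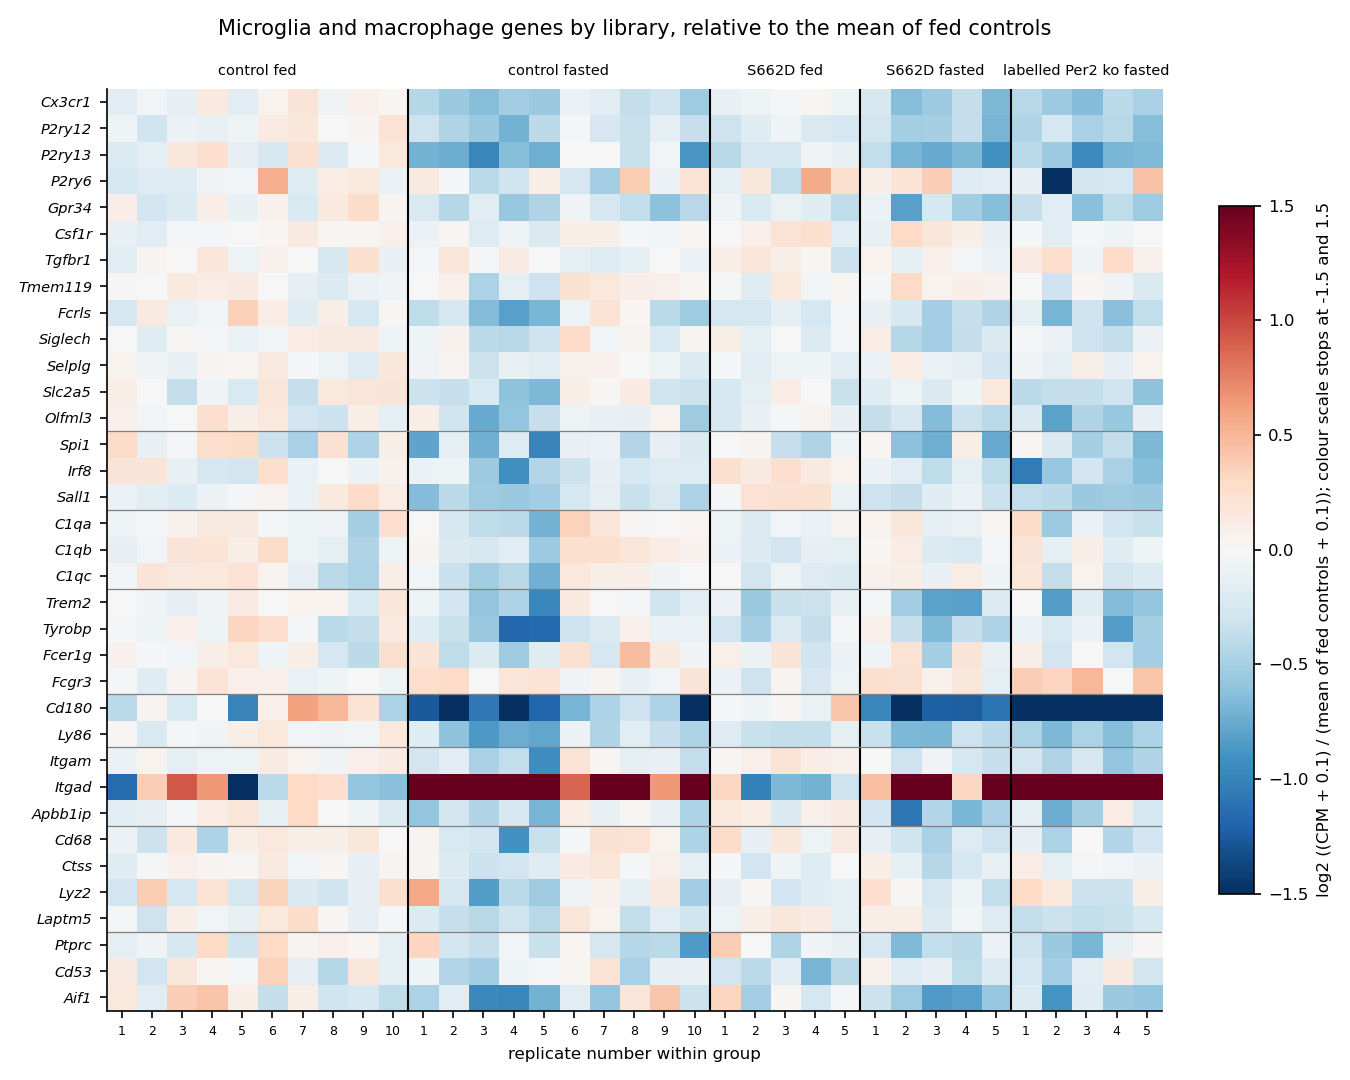
Level of the 35 genes (rows, ordered by role, grey lines between roles) in the 35 libraries (columns, by group and replicate number), as log2 of the CPM plus 0.1 against the mean of fed controls plus 0.1. Blue is lower and red higher, and the colours stop at -1.5 and 1.5. Itgad is red in most fasted columns, and fasted controls 1 to 5 are bluer than fasted controls 6 to 10 over much of the list.

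The labels give controls 1 to 5 and 6 to 10 as 1 group, but the header numbers place them in separate ranges, and the fasting response was compared between them. Within controls 1 to 5, 17 of 35 genes were called on fasting, 16 of them lower, beside 7.4% of all genes tested, and the median log2 fold change was -0.34. Within controls 6 to 10, 4 were called, Cx3cr1, P2ry12, Sall1 and Itgad, beside 1.71% of all genes, and the median was -0.08. Those 4 were called in both sets. Itgad changed by 2.40 and 1.98 in the sets, Cx3cr1 by -0.48 and -0.34, Sall1 by -0.42 and -0.38 and P2ry12 by -0.36 and -0.33.

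The difference between the sets was tested directly as an interaction of control set and fasting. It called 6 of 35 genes, all with a more positive response in controls 6 to 10, beside 10.6% of all genes (5.99% in that direction, 4.63% in the other). An unadjusted p below 0.05 was found for 11 of the 35 and for 26% of all genes. They were the 3 C1q chains, Aif1, Tmem119 and P2ry13. Differences between the sets were common among all genes too. The calls of C1qa and P2ry13 were lost in 12 of 25 alternative fits each, most of them fits without 1 control library, and those of the other 4 were kept in all 25.

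C1qc had the smallest adjusted p of the 6. In controls 1 to 5 it was at 29.6, 34.7, 33.6, 33.9 and 35.5 CPM fed and at 29.6, 24.2, 21.2, 22.7 and 18.4 CPM fasted. Controls 6 to 10 gave 31.5, 28.0, 23.0, 21.9 and 32.6 CPM fed and 34.1, 32.3, 32.7, 29.3 and 30.6 CPM fasted. Fasted libraries were thus at or under the fed ones in the first set and mostly at or over them in the second. The log2 fold changes were -0.53 and 0.21, and their difference was 0.74 (SE 0.15, adjusted p = 0.00406). C1qa (difference 0.55, SE 0.18, adjusted p = 0.0398) and C1qb (0.54, SE 0.14, adjusted p = 0.0133), which lie next to C1qc on chromosome 4, had responses of -0.38 and -0.29 in controls 1 to 5 and 0.17 and 0.25 in controls 6 to 10.

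Aif1, which encodes the microglial cytoskeletal protein IBA1, was at 3.04, 2.44, 3.54, 3.71 and 2.92 CPM in fed controls 1 to 5 and 1.94, 2.42, 1.35, 1.33 and 1.63 CPM in fasted ones. In controls 6 to 10 it was at 2.11, 2.93, 2.20, 2.28 and 2.08 CPM fed and 2.44, 1.77, 3.11, 3.66 and 2.15 CPM fasted. In the first set the fasted libraries lay below the fed ones, though the nearest, at 2.42 and 2.44 CPM, were almost equal. In the second set they overlapped. The share of all genes without overlap was not counted. The difference of the responses was 1.03 (SE 0.28, adjusted p = 0.0153). Tmem119, a surface protein used to tell microglia from other macrophages, had responses of -0.25 and 0.21, a difference of 0.45 (SE 0.12, adjusted p = 0.0115). P2ry13 had -0.78 (adjusted p = 5.90e-05) and -0.21 (adjusted p = 0.437), a difference of 0.57 (SE 0.19, adjusted p = 0.0463).

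Fasted controls alone showed the sets apart as well. In controls 6 to 10 against 1 to 5, 10 of 35 genes were higher and 0 lower, beside 6.02% of all genes (3.09% higher, 2.93% lower), 24 had an unadjusted p below 0.05 beside 22.7% of all genes, and the median log2 difference of the 35 was 0.26. The summed level was 495 to 586 CPM in fasted controls 6 to 10 and 418 to 515 CPM in fasted controls 1 to 5. The 10 were P2ry13 (0.56), C1qa (0.45), C1qc (0.45), Fcrls (0.42), C1qb (0.38), Itgam (0.36), Tmem119 (0.28), Cx3cr1 (0.26), P2ry12 (0.26) and Sall1 (0.25). C1qa and C1qb did not overlap between the sets, though the nearest libraries of the 2 sets were almost equal in C1qa. The share of all genes without overlap was not counted, so this is not read as a result about these genes. Counting of Itgam may be shared, since 66.3% of its 50-base words also occur in transcripts of Gm49368 in a later annotation. The count of 10 depended on single libraries: it was 0 without fasted control 5, 2 without control 7 or without control 9, 3 without control 3 or without control 6, and 4 without control 4. The share of all genes called fell in the same fits. It was 0.499% without control 5, 2.04% without 7, 1.5% without 9, 2.78% without 3, 3.42% without 6 and 3.86% without 4. In fed controls 0 of 35 genes were called between the sets (0% of all genes), 6 had an unadjusted p below 0.05 beside 13.5% of all genes, and DESeq2 called 0.

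Other features were compared between the control sets as well. In the fasted comparison 3 of 5 oligodendrocyte markers were called higher in 6 to 10. Markers of the choroid plexus, a neighbouring secretory tissue, summed to 19.2 to 200.6 CPM in fasted controls 1 to 5. In fasted controls 6 to 10 they summed to 27.8, 24.2, 1533, 1321 and 114 CPM, so only replicates 8 and 9 lay above that range. In fed controls the highest sum, 956 CPM, was in replicate 2, so high sums belonged to single libraries of either set. Mitochondrial genes took 7.27% to 8.70% of counts in fasted controls 1 to 5 and 6.81% to 7.29% in 6 to 10. Transcript length moved with the interaction: its median over all genes was 0.19 for exon lengths up to 1500 bases, 0.09 above that and up to 3000, 0.01 above that and up to 6000, and -0.11 for longer genes. The members of these 4 classes had medians of 0.34, 0.45, 0.11 and 0.16. The part of these features in the differences between the sets was not tested.

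**Figure D4:**
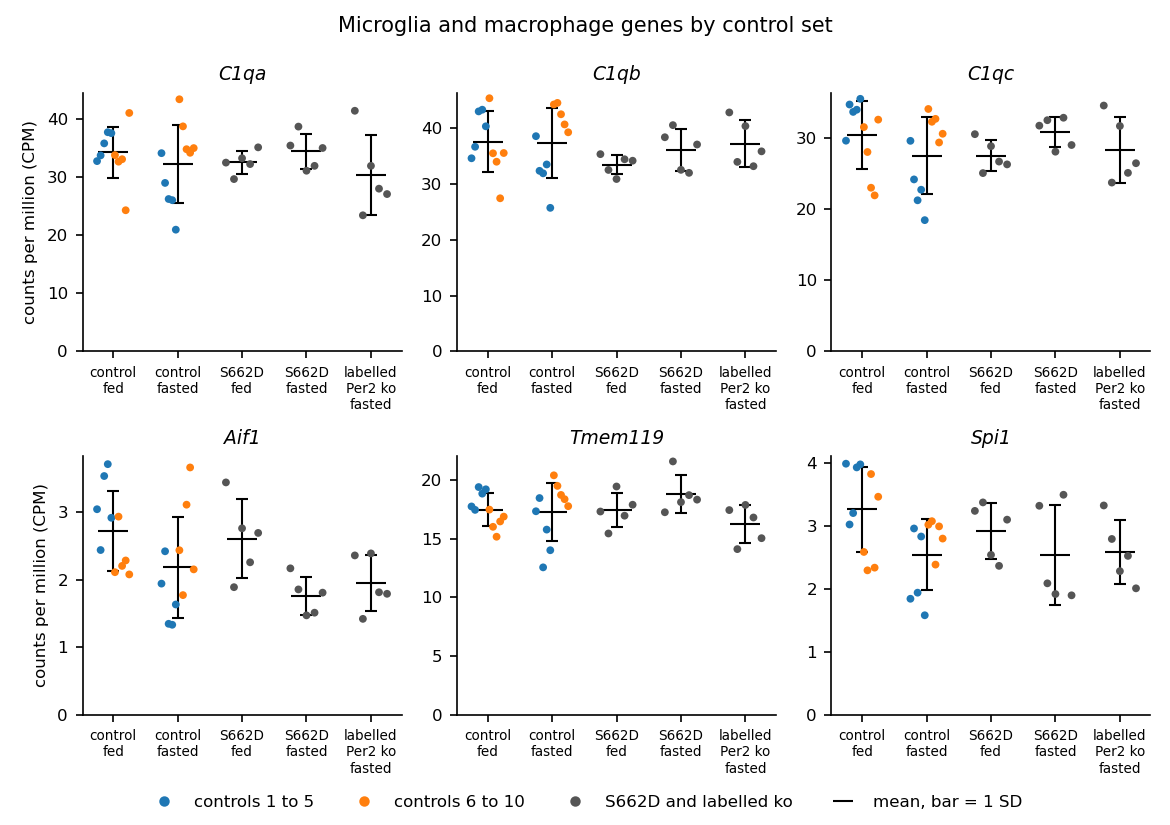
Level in each library (vertical axis, CPM) of the C1q chains, Aif1, Tmem119 and Spi1, by group, with the mean and SD as black bars. In fasted controls, orange points (controls 6 to 10) lie mostly above blue points (controls 1 to 5), with C1qc at 29.3 to 34.1 against 18.4 to 29.6 CPM, while in fed controls the 2 sets overlap.

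Between genotypes, 0 of the 35 genes were called. S662D against control gave 0 in fed mice, beside 4.69% of all genes, and 0 in fasted mice, beside 5.57%. The median log2 differences were -0.09 and -0.02. At an unadjusted p below 0.05 there were 4 genes in fed mice (P2ry12, Trem2, Ly86 and Cd53, all lower in S662D) and 2 in fasted mice (Apbb1ip and Laptm5), beside 21% and 20.8% of all genes. DESeq2 called 2 and 0 of the 35, beside 7.89% and 7.48% of all genes. For the labelled Per2 ko against fasted controls 0 of 35 were called, beside 0.0277% of all genes, with 4 at an unadjusted p below 0.05 (6.07% of all genes) and 0 by DESeq2. Cd180 had the largest of these differences: the labelled ko libraries were at 0.107, 0.379, 0.326, 0.513 and 0.434 CPM, on 2 to 13 fragments each, and the log2 difference of -1.19 (SE 0.32) had an adjusted p of 0.417. The range of the labelled ko overlapped that of fasted controls, which began at 0.377 CPM.

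Against fasted S662D mice, the labelled ko gave 0 calls among the 35 genes, beside 7.34% of all genes, with 8 at an unadjusted p below 0.05 (22.4% of all genes) and 1 by DESeq2 (9.63% of all genes). Itgad was at 3.59, 5.49, 3.10, 3.04 and 3.20 CPM in the labelled ko, above all 5 fasted S662D libraries, with a log2 difference of 0.93 (SE 0.36, adjusted p = 0.116). Sall1, Slc2a5 and Laptm5 lay below all fasted S662D libraries, with log2 differences of -0.22, -0.34 and -0.29 and adjusted p of 0.126, 0.128 and 0.0587. The share of all genes whose groups did not overlap here was not counted, so these separations are not read as a result about the members.

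Levels were also compared between S662D libraries with and without the additional digit. Few members divided by it, and Csf1r, described after its values were seen, was at 66.7, 70.0, 77.7, 78.4 and 59.8 CPM in fed S662D replicates 1 to 5 and at 61.5, 82.1, 75.5, 71.0 and 61.4 CPM in fasted ones. In both states replicates 2, 3 and 4, which carry the digit, were above replicates 1 and 5. Csf1r was 1 of 35 genes with that order in both states, beside 8.6% of all genes, and Trem2 and Ctss were 2 of 35 with the opposite order, beside 6.74%. Both shares were below those of all genes, so the division was not a result about these members. With the digit libraries alone, S662D mice had 0.18 more Csf1r on the log2 scale than fed controls and 0.23 more than fasted controls. In those fits 16.9% and 17.1% of all genes were called. Without the digit libraries the values were -0.08 and -0.08, where 0.0854% and 0.112% of all genes were called. Csf1r was picked because it divided by the digit, so these values describe that choice and give no test. Of the counted exon bases of Csf1r, 17.8% overlap Hmgxb3 on the other strand.

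Among the ligands of the receptors, Il34 was lower in all S662D libraries. Il34 and Cx3cl1 were picked from a longer list of partner genes after their values were seen. The number of those partners called between genotypes is not given here. Il34, which encodes a neuronal ligand of the CSF1 receptor, was at 17.3, 16.1, 16.3, 18.3 and 18.0 CPM in fed and 15.8, 16.9, 16.9, 17.2 and 15.6 CPM in fasted S662D mice. Fed controls spanned 21.6 to 25.02 CPM (median 23.2) and fasted controls 19.0 to 25.3 CPM (median 22.1), so every S662D library lay below every control of its feeding state. The log2 differences were -0.44 (SE 0.06, adjusted p = 2.47e-06) and -0.41 (SE 0.06, adjusted p = 1.33e-05), and both calls were kept in all 25 alternative fits. In these comparisons 4.69% of all genes were called in fed and 5.57% in fasted mice. The share of all genes whose groups did not overlap was not counted. In the labelled ko Il34 was at 22.1 to 27.2 CPM, 0.55 above fasted S662D mice on the log2 scale (SE 0.06, adjusted p = 2.56e-07), where 7.34% of all genes were called. Csf1, the other ligand, was not called in these comparisons.

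Cx3cl1, the ligand of CX3CR1, was called higher in S662D mice, by 0.21 on the log2 scale in fed mice (SE 0.06, adjusted p = 0.0407) and by 0.24 in fasted mice (SE 0.06, adjusted p = 0.0149), but the high libraries were those with the additional digit. Fed S662D replicates 1 and 5 were at 353.6 and 346.1 CPM and replicates 2, 3 and 4 at 424.6, 456.1 and 447.8 CPM. Fasted replicates 1 and 5 were at 338.4 and 355.1 CPM and replicates 2, 3 and 4 at 470.4, 463.2 and 457.9 CPM. Controls spanned 328.5 to 369.1 CPM fed and 331.5 to 366.9 CPM fasted, so the libraries without the digit lay in the range of controls. Without the digit libraries the log2 differences were -0.0093 and -0.021 (adjusted p = 1.00 and 0.997), and over all alternatives the calls were kept in 14 and 18 of 25 fits. Beside the Cx3cl1 calls, 4.69% of all genes were called in fed and 5.57% in fasted mice, and 0.0854% and 0.112% without the digit libraries. Fasting did not call either ligand, Il34 or Cx3cl1, in either genotype.

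Other partners of the group were read from a list of 63 genes (ligands and cofactors, Toll-like receptor and integrin partners, complement, signalling, transcription factors, lysosome and further markers), of which 59 could be tested. In controls 3 rose on fasting and 0 fell, beside 2.2% of all genes higher and 1.68% lower, with 33 above and 26 below 0 and a median of 0.01. The same 3 rose in S662D mice, where 1.8% of all genes were called higher. In controls, Nrros, whose product presents latent TGF-beta on microglia, was at 3.31, 4.04 and 4.83 CPM (lowest, median, highest) fed and 5.09, 6.74 and 9.79 CPM fasted, without overlap (log2 fold change 0.81, SE 0.11, adjusted p = 2.49e-06). S662D mice gave 3.29, 3.56, 4.20, 3.58 and 4.47 CPM fed and 5.35, 11.4, 9.54, 9.96 and 8.86 CPM fasted (1.24, SE 0.15, adjusted p = 3.75e-07). The interaction for Nrros was 0.43 (adjusted p = 0.771). In controls too, the share of all genes whose groups did not overlap was not counted.

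Cebpa, which encodes a myeloid transcription factor that other cell types also use, rose from 10.7 ± 1.09 to 14.1 ± 0.696 CPM in controls (SD, n = 10 each), by 0.39 on the log2 scale (SE 0.06, adjusted p = 5.16e-06). In S662D mice the rise was 0.65 (SE 0.08, adjusted p = 3.32e-07). Crybb1, a crystallin gene known as a marker of microglia, rose from 2.73 ± 0.391 to 3.83 ± 0.389 CPM in controls (0.49, SE 0.11, adjusted p = 0.00239) and by 0.70 (SE 0.14, adjusted p = 0.00190) in S662D mice. The call of Crybb1 in controls was lost within each of the 2 control sets. The S662D calls of Nrros, Cebpa and Crybb1 were lost in the libraries without the additional digit, where 0.0373% of all genes were called. These 3 genes thus rose in the same libraries in which Cx3cr1, Sall1 and the CD180 gene fell.

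Of 19 genes of microglial activation, 10 could be tested, and 1 was called on fasting in controls, beside 3.88% of all genes. It was Il1a, which encodes the cytokine interleukin 1 alpha. It lay at 0.262, 0.455 and 0.795 CPM (lowest, median, highest) fed and 0.0539, 0.238 and 0.316 CPM fasted, on 1 to 15 fragments per library, and 8 of 10 fed libraries were above every fasted one. The log2 fold change was -1.24 (SE 0.28, adjusted p = 0.00309). Il1a lay near the limit of the count filter and was tested in 21 of 28 alternative fits, keeping its call in those 21. Fasted controls reached at most 0.316 CPM, so its entry among the genes tested rested on libraries where it was higher. Its call is therefore given as a description only. In S662D mice Il1a had -0.73 (adjusted p = 0.318), and 0 of the 10 were called beside 2.64% of all genes, with 2 at an unadjusted p below 0.05 beside 14.3%.

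**Figure D5:**
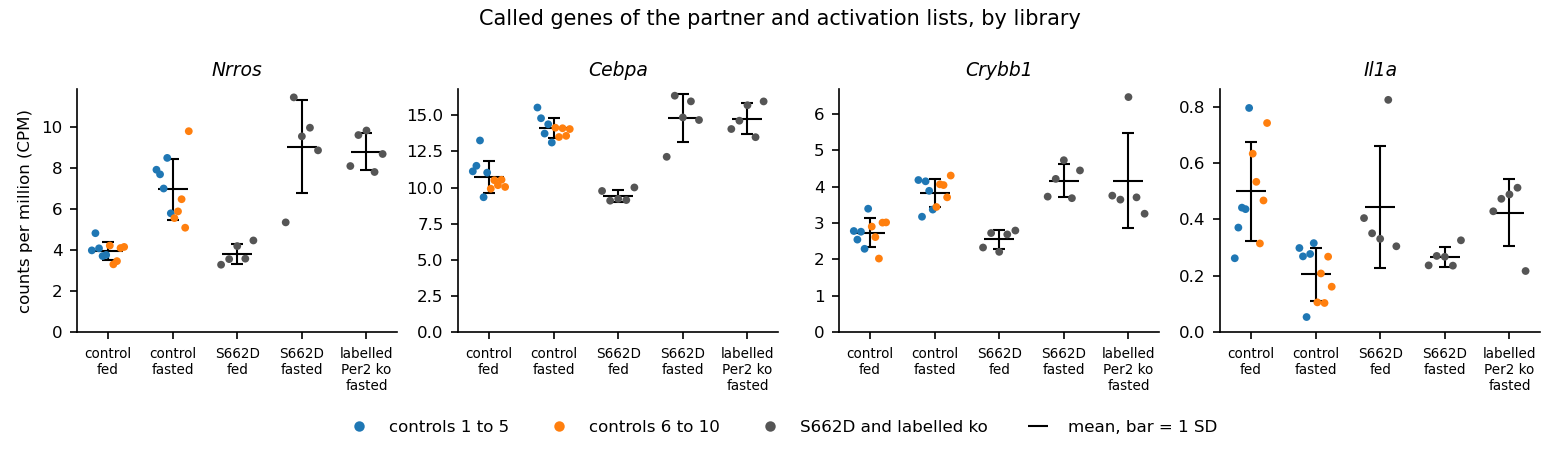
Level in each library (vertical axis, CPM) of the 4 partner and activation genes called on fasting in controls, by group, with the mean and SD as black bars. Nrros, Cebpa and Crybb1 are higher and Il1a lower in fasted controls, and blue points (controls 1 to 5) and orange points (controls 6 to 10) overlap in each panel.

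Markers of other cell types were called on fasting too. In controls Aqp4 (-0.33) and Aldh1l1 (0.20) of the 6 astrocyte markers and Cldn5 (-0.43) of the 5 endothelial markers were called. Of the neuronal and the oligodendrocyte markers 0 of 5 each were called, beside 3.88% of all genes. The calls of Aqp4 and Cldn5 were lost within controls 6 to 10, and that of Aldh1l1 within controls 1 to 5. In S662D mice Aldh1l1 (0.19) and Aldoc (0.24), the endothelial Ly6c1 (0.40) and the neuronal Nefl (0.17) were called. Those of Nefl and Aldh1l1 were lost in 14 and 11 of 18 alternative fits. Those of Aldoc and Ly6c1 were lost in the libraries without the additional digit. The S662D calls were 2 of 6 astrocyte, 1 of 5 endothelial, 1 of 5 neuronal and 0 of 5 oligodendrocyte markers, beside 2.64% of all genes. The 5 choroid plexus markers varied widely between libraries, with sums of 19.4 to 956 CPM in fed and 19.2 to 1533 CPM in fasted controls, and 0 of them were called in either genotype (0 and 1 at an unadjusted p below 0.05). None of the 6 tested border macrophage markers was called in either genotype, with 2 at an unadjusted p below 0.05 in controls and 0 in S662D mice. The part of such differences in cell content in the fasting response of the 35 genes was not tested.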

How the data were processed

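Polyadenylated RNA of dissected hypothalamus was sequenced in 35 libraries as paired 150-base reads, per the labels' protocols. The deposited values are whole-number counts per gene name, made with featureCounts 2.0.1 (options -J -M -p, GENCODE vM12, mm10, no strand option), per the file headers. Multi-mapping fragments were counted (-M), so near-identical genes can share them, and antisense genes cannot be told apart. STAR 2.7.10b is named in the submitters' processing notes.

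Genes with enough counts (filterByExpr, minimum count 10) numbered 18063. Counts were scaled by TMM and tested with edgeR 4.0.16 (quasi-likelihood, robust, R 4.3.3) in 1 fit over all 35 libraries with 5 group means, or 7 means with the controls divided into replicates 1 to 5 and 6 to 10. Benjamini-Hochberg adjustment covered all genes tested, and a gene was called at an adjusted p below 0.05. SE is the log2 fold change divided by the square root of the F statistic. The same procedure was tested on simulated data. Alternatives were DESeq2 1.42.0, other scalings, no filter, fits of only the compared groups, a replicate block, either set of controls, S662D libraries with or without the additional digit, and leaving out each library. A planned comparison of protein sequences was not made.

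Genes were named by rule: every member called in a comparison, the 3 most and 3 least abundant members per length, and the listed genes called on fasting. Members of small counts at an unadjusted p, Itgam as the neighbour of Itgad, Il34, Csf1, Cx3cl1 and the division of Csf1r by the header digit were named after their values were seen. The members and lists were chosen with earlier results of these data known.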

Additional observations from a re-analysis of the deposited data

Results flagged for a closer look

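In 4 of the 80 groups examined for single libraries that stand apart (16 genes in 5 groups), 1 library lay far from the rest by Dixon's criterion, and chance alone flags about 1 group in 20. Itgad was at 5.49 CPM in labelled Per2 ko replicate 2, where the other 4 libraries lay between 3.04 and 3.59 CPM. Apbb1ip was at 2.98 CPM in fed S662D replicate 3, below the other 4. Cd180 was at 2.29 CPM in fed S662D replicate 5, above the other 4. C1qa was at 24.2 CPM in fed control replicate 9, below the other 9.

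A test of the difference itself found the fasting response unequal in controls 6 to 10 and controls 1 to 5 for 6 of the 35 genes. The log2 difference of the responses (controls 6 to 10 minus controls 1 to 5) was 1.03 for Aif1, 0.74 for C1qc, 0.57 for P2ry13, 0.55 for C1qa, 0.54 for C1qb and 0.45 for Tmem119. Since the library numbers of both sets form separate ranges, a biological difference between the sets and a technical one cannot be told apart.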

How the results depend on the processing

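Counts of the 35 genes called moved by over 1.5 times as follows. For fasting in controls, where 8 were called, controls 1 to 5 alone gave 17 (7.4% of all genes) and controls 6 to 10 alone 4 (1.71%). For fasting in S662D mice, where 5 were called, the libraries without the additional digit gave 0 (0.0373% of all genes). For the interaction of genotype and fasting (0), controls 1 to 5 gave 1 (2.73% of all genes). S662D against fed controls (0) gave 2 with DESeq2 (7.89% of all genes) and 2 with only the compared groups (5.86%). It gave 1 with the replicate block (6.22%), 1 with controls 1 to 5 (9.79%) and 2 with the digit libraries (16.9%). S662D against fasted controls (0) gave 2 with the replicate block, 4 with controls 1 to 5 and 3 with the digit libraries. In the same order, 6.05%, 9.45% and 17.1% of all genes were called. The labelled Per2 ko against fasted controls (0) gave 1 with controls 6 to 10 (0.556% of all genes). Against fasted S662D mice (0) it gave 1 each with DESeq2, only the compared groups, the replicate block and the digit libraries. In the same order, 9.63%, 2.76%, 6.91% and 16.2% of all genes were called. The comparison of control sets in fasted mice (10) gave 6 with no filter on low counts (1.9% of all genes). For Cx3cl1, S662D libraries without the digit reversed the difference from controls to -0.0093 fed and -0.021 fasted. Leaving out each library in turn gave 8 to 11 calls for fasting in controls, 4 to 6 in S662D mice, 0 to 0 for the interaction, 0 to 1 for S662D against fed and 0 to 0 against fasted controls, 0 to 0 for the labelled ko against controls and 0 to 1 against S662D mice, 0 to 0 for the control sets fed, 0 to 13 for the sets fasted and 4 to 8 for the set interaction. In the same order, the percentages of all genes called were 3.17 to 4.35, 1.71 to 3.21, 0 to 0, 0.362 to 9.15, 0.845 to 9.89, 0.022 to 0.0277, 2.86 to 10.2, 0 to 0.693, 0.499 to 7.31 and 4.51 to 12. The cause of these shifts was not tested. In no pair of groups did every same-numbered pair of libraries have a correlation of deviations above 0.1, so the numbers were not taken as pairing: it was -0.19 to 0.06 for fed and fasted controls, -0.11 to 0.16 for S662D mice (2 of 5 above 0.1) and -0.05 to 0.24 for fed controls and fed S662D mice (3 of 5). With the replicate block, fasting called 11 in controls (3.86% of all genes) and 5 in S662D mice (2.42%). The control sets share no numbers, so no block was fitted there. Cd180, Itgad and Il1a rest on few fragments, which limits their precision.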
